A study of Mus musculus with 4 samples.

Results

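Thymic B cells were described from 3 single-cell libraries of sorted thymic cells, in which they made up 2826 of 23549 kept cells. Their members were selected on measured values: a kept cell carried at least 3 UMIs of Cd79a and at least 1 of Ms4a1, no UMI of Cd3e or Xcr1, at most 2 of Siglech and fewer than 30 over C1qa, C1qb and C1qc. A UMI is a tag that marks 1 captured RNA molecule, so a UMI count is a count of molecules. Cells were kept when they held 1000 to 7000 detected genes and at most 10% of UMIs from mitochondrial genes. The B cells numbered 841 of 6219 kept cells in MAFIA replicate 2, 975 of 7646 in Cd11cYFP replicate 1 and 1010 of 9684 in Cd11cYFP replicate 2. Values in 3 libraries are given in that order throughout.

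The study profiled sorted thymic myeloid cells to resolve macrophage and dendritic cell populations. All mice were C57BL/6, kept free of specific pathogens and killed with CO2, and thymuses were digested with collagenase P and DNase I before a Percoll step. MAFIA mice (labelled MaFIA, genotype Csf1r-EGFP-NGFR/FKBP1A/TNFRSF6, 5 weeks old, female) carry EGFP and a drug-inducible death receptor under the Csf1r promoter, and EGFP+ cells were sorted. Cd11cYFP mice (labelled CD11c-YFP, genotype Itgax-Venus, 9 weeks old, male) carry the yellow fluorescent protein Venus under the Itgax promoter, and YFP+ cells were sorted. The labels name no drug given to the MAFIA mice. Each Cd11cYFP library came from 1 mouse by the study's methods, which describe 1 MAFIA mouse, whereas the labels list 2 MAFIA libraries. MAFIA replicate 1 was shallow, and its 19 cells that passed the rule, out of 5493 kept, entered no comparison. A cell sorted on a myeloid reporter is not a random B cell of the thymus, so shares of cells below describe the sorts and not the organ.

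The thymus holds a small resident population of B cells, which lies mostly in the medulla and at the border of cortex and medulla. B cells there present antigen to developing T cells, and thymic B cells are known to switch immunoglobulin class and to express Aire, the regulator best known for placing tissue antigens on display in medullary epithelium. A B cell that has not met antigen carries IgM and IgD, loses IgD after activation, and may then switch its heavy chain to IgG, IgA or IgE. Plasma cells, the antibody-secreting descendants of B cells, lose most B cell receptors and B cell transcription factors and load their RNA with immunoglobulin and J chain.

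B cells held a median of 12498, 10557 and 11220 UMIs, against 18720.5, 16415 and 17749 in the other kept cells of the same libraries. The 2 Cd11cYFP libraries shared 1 cell barcode among their B cells, and neither shared one with MAFIA replicate 2. The share of B cells among kept cells was 13.5% (95% exact binomial interval 12.7 to 14.4), 12.8% (12.0 to 13.5) and 10.4% (9.83 to 11.1), and 0.346% (0.208 to 0.540) in MAFIA replicate 1. These intervals and all others below cover counting error only. In the shallow MAFIA replicate 1 the share depended on the Cd79a limit. With at least 1 Cd79a UMI it was 5.28% there and 14.0% in MAFIA replicate 2. Near the threshold, 27, 30 and 52 members held exactly 3 Cd79a UMIs, and 81.5%, 63.3% and 63.5% of them had a UMI of Pax5. Just outside it, 17, 24 and 34 cells with 2 Cd79a UMIs met every other condition, and 82.4%, 50% and 73.5% of them had a UMI of Pax5.

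The labels call all sorted cells myeloid, but the selected cells expressed the defining genes of B cells. Levels are given as CPM, the usual scaled share of a gene in all UMIs summed over the cells named, which lets sums of unequal size be compared. Pax5, the transcription factor that maintains B cell identity and a gene that the rule did not use, stood at 243, 193 and 171 CPM in B cells against 9.17, 3.43 and 5.98 in the other kept cells. After each cell was reduced at random to 5000 UMIs, 67.1%, 61.0% and 53.6% of B cells still had a Pax5 UMI, compared with 0.826%, 0% and 0.435% of thymocytes (cells with at least 2 Cd3e UMIs and no Cd79a UMI; median depth 15817, 9791 and 14113.5 UMIs). Fcmr, the receptor for IgM, stood at 371, 344 and 323 CPM against 11.4, 6.19 and 10.6. The receptor for the survival factor BAFF, Tnfrsf13c, stood at 176, 142 and 122 CPM against 10.3, 6.86 and 6.80, and the mucosal homing receptor Ccr6 at 331, 229 and 202 CPM against 17.5, 9.94 and 11.0. Genes of B cell progenitors were scarce: Rag1, which cuts immunoglobulin and T cell receptor loci, had 24, 7 and 20 UMIs over all B cells, and the surrogate light chain gene Igll1 had 0, 0 and 1. The rule did not use these genes, but it selected B cells, so the direction of these differences largely followed from the selection. They are descriptions without a test.

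Genes of macrophages, dendritic cells and thymocytes were lower in B cells than in the other kept cells, while monocyte markers were higher in 2 of the 3 libraries. The rule itself limited C1qa, C1qb and C1qc and excluded Xcr1 and Cd3e, which are members of these lists. The selection thus fixed part of the lower sums. The 6 macrophage markers summed to 137, 92.6 and 68.9 CPM in B cells against 4812, 3336 and 2152 in the other kept cells. The 9 dendritic cell markers summed to 1296, 831 and 1735 CPM against 13861, 12018 and 17771, with 1 of the 9 (Xcr1, by the rule) at 0 in B cells of each library. Most of that sum was Cst3, an inhibitor of cysteine proteases that is very abundant in dendritic cells, which had a UMI in 99.2%, 98.6% and 99.5% of B cells. At 5000 UMIs per cell those shares were 91.1%, 87.8% and 92.4%, beside 91.7%, 80.9% and 92.8% of thymocytes. Of the Cst3 UMIs of B cells, 56.5%, 31.9% and 50.7% lay in 28, 54 and 95 cells that also carried genes of Ccr7+ dendritic cells, described below, and the source of the rest was not tested. The 8 thymocyte markers summed to 58.0, 32.5 and 35.2 CPM against 595, 512 and 375, and the 5 markers of Ccr7+ dendritic cells to 975, 855 and 1336 CPM against 1515, 3000 and 3235. The 4 monocyte markers summed to 1545, 2653 and 2325 CPM in B cells against 2037, 1470 and 673, so B cells stood above the other cells in both Cd11cYFP libraries. Most of that sum came from Ly6c2, a surface antigen also found on lymphocytes, at 534, 950.2 and 901 CPM, and Plac8 at 991, 1692 and 1410 CPM. Fewer molecules of a gene per cell and fewer cells carrying it cannot be told apart in such sums. The genes whose promoters drive the reporters were low in these cells: Itgax, which encodes CD11c, stood at 10.4, 12.0 and 16.6 CPM against 122, 141 and 121 in the other cells, and Csf1r, the receptor for CSF-1, at 23.6, 7.07 and 5.39 CPM against 193, 146 and 105.

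B cells carried the machinery of antigen presentation. The 13 genes of the MHC class II list summed to 30179, 27518 and 28708 CPM in B cells against 44446, 43550 and 48896 in the other cells, within 2-fold in each library. Ciita, the master regulator of MHC class II transcription, stood at 435, 271 and 271 CPM against 218, 222 and 203. H2-DMb2 and H2-Oa, whose products take part in the control of peptide loading onto MHC class II, were both higher in B cells of each library. H2-Oa stood at 352, 335 and 308 CPM against 82.1, 100.5 and 112. Cd86, a costimulatory ligand for T cells, stood at 73.9, 134 and 122 CPM, below its 196, 196 and 212 in the other cells. Cd40, the receptor through which T cells license B cells, stood at 137, 90.3 and 104 CPM against 163, 113 and 123, and Cd80 at 21.3, 30.9 and 26.5 CPM against 19.7, 31.7 and 30.9.

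Most B cells expressed IgM, and a minority of switched cells was led by IgG2b and IgA. In 836, 958 and 992 B cells the most abundant, or leading, heavy chain constant gene had at least 5 UMIs. Ighm led in 78.9%, 67.1% and 68.3% of these cells, Ighg2b in 12.6%, 20.9% and 17.2%, and Igha in 6.58%, 8.25% and 11.6%. Ighg2c led in 0.478%, 2.40% and 1.41% of these cells, and Ighg1, Ighg3 and Ighe each in fewer than 1%. Immunoglobulin RNA was also found in cells that are not B cells, and the share of thymocytes with an Ighm UMI after reduction to 5000 UMIs was 46.3%, 37.6% and 43.3%, against 85.6%, 75.0% and 75.5% of B cells. For Ighg2b these shares were 2.48%, 3.27% and 1.96% of thymocytes against 60.0%, 64.9% and 65.3% of B cells, so an Ighg2b UMI was the more specific sign. Kappa light chain UMIs outnumbered lambda UMIs in 88.8%, 86.2% and 86.7% of B cells, while at least 1 lambda UMI was found in 840 of 841, 975 of 975 and 1010 of 1010.

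To allow for this background, B cells were placed in classes by dominant heavy chain. Switched cells held at least 5 UMIs over Ighg1, Ighg2b, Ighg2c, Ighg3, Igha and Ighe and at least 2 times as many of these as of Ighm and Ighd together. IgD+ cells held at least 5 UMIs of Ighm and Ighd with at least 2 of Ighd, IgM-only cells at least 5 of Ighm and none of Ighd, and in both the switched genes reached at most 10% of that sum. The rule assigned 433, 525 and 524 cells and gave no class to 408, 450 and 486. Switched cells were 39.0% (34.4 to 43.8), 58.9% (54.5 to 63.1) and 60.3% (56.0 to 64.5) of the assigned cells, with 169, 309 and 316 cells. IgD+ cells were 45.0% (40.3 to 49.9), 16.8% (13.7 to 20.2) and 11.6% (9.02 to 14.7), with 195, 88 and 61 cells. The 2 Cd11cYFP libraries lay close together, and MAFIA replicate 2 held more IgD+ and fewer switched cells than either. After reduction to 5000 UMIs the switched share was 37.5%, 54.4% and 53.8%. Because Ighd is scarce, a shallow IgD+ cell can lack an Ighd UMI and fall among the IgM-only cells, and the IgD+ share fell to 29.3%, 9.56% and 6.92% after the reduction.

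**Figure D1:**
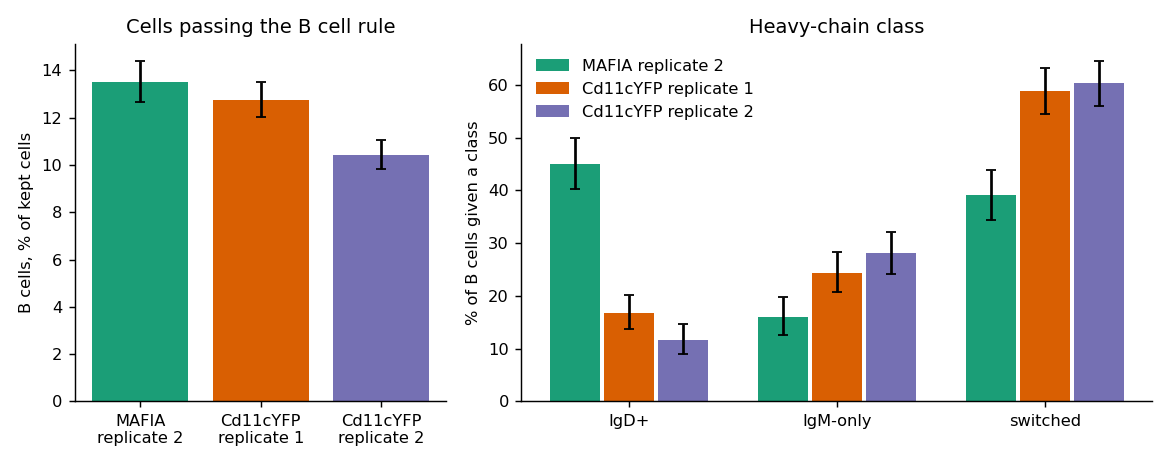
Bars give the B cell share of kept cells (left, percent) and the share of IgD+, IgM-only and switched cells among class-assigned B cells (right, percent) in each of the 3 libraries, with 95% exact binomial intervals as error lines. B cells were 13.5%, 12.8% and 10.4% of kept cells, and the switched share was 39.0% in MAFIA replicate 2 against 58.9% and 60.3% in the Cd11cYFP libraries.

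The comparison of switched with IgD+ cells asked how class-switched thymic B cells differ from those with the receptor of a naive cell, within each library. UMIs were summed per library and class and compared with edgeR's quasi-likelihood test with the library as a block, and p-values were adjusted by the Benjamini-Hochberg method over all genes tested. Heavy chain constant genes chose the cells and were not tested. Of 9608 genes, 657 (6.84%) passed an adjusted p of 0.05, 291 higher (3.03%) and 366 lower (3.81%) in switched cells. Switched cells were deeper, with medians of 13194, 12080 and 12278.5 UMIs against 9381, 8976.5 and 8388 in IgD+ cells. In 1 random draw of 118, 88 and 61 cells per class with matched depth, an alternative chosen after seeing the data, 136 of 8120 genes passed (1.67%), 73 higher (0.899%) and 63 lower (0.776%), and 128 of them were also called with all cells, each with the same sign. The draw also held fewer cells than the classes it was taken from. Libraries and not cells are the replicates, and the block takes up level differences between them. These p-values therefore rest on how alike the class differences were across 3 libraries of 2 genotypes.

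Switched cells carried less RNA of the genes of a naive follicular B cell. Of the 13 genes tested in that list, 11 were lower, none was higher, and the median log2 fold change was −1.46, where the median over all genes tested was −0.01. With depth matched, 8 were lower. Cr2 (ENSMUSG00000026616, chr1:194819119-194859091, minus strand, GRCm39), the complement receptor CD21 that lowers the threshold of antigen receptor signalling, stood at 214, 152 and 70.8 CPM in IgD+ cells and at 19.6, 17.1 and 14.5 CPM in switched cells. Every IgD+ value lay above every switched value, with a log2 fold change of −2.99 ± 0.29 (adjusted p = 0.000188), where ± gives the standard error here and below. Fcmr, the IgM receptor, stood at 643, 667 and 628 CPM against 196, 178 and 214, with a log2 fold change of −1.74 ± 0.10 (adjusted p = 4.52e-06).

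In the chemokine and migration receptor list, 1 of 13 tested genes was higher (Cxcr3) and 4 were lower, with a median log2 fold change of −0.02, and with depth matched 3 were higher and 2 lower. S1pr1, which guides lymphocytes out of tissue, had a log2 fold change of −1.46 (adjusted p = 0.00661), though it did not pass without Cd11cYFP replicate 1 (−1.22) or replicate 2 (−1.39). Satb1, a chromatin organiser of lymphocytes, had one of −1.61, and Cd55, which protects cells from complement, one of −1.66. Among the 8 largest decreases were Dtx1, a regulator of Notch signalling, at 7.37, 12.0 and 18.1 CPM in IgD+ cells against 0.385, 1.83 and 0.996 in switched cells, and Pxdc1 at 58.1, 57.8 and 34.6 CPM against 5.39, 4.68 and 4.98. Zfp318, which is required for the expression of IgD, stood at 102, 79.6 and 51.2 CPM against 15.0, 12.6 and 10.8, a log2 fold change of −2.58 ± 0.18 (adjusted p = 1.82e-05). Its IgD+ and switched values did not overlap, and since the class rule used Ighd itself, a partner of Ighd is close to the rule. Fcer2a, the low-affinity IgE receptor of follicular B cells, did not pass (log2 fold change −0.07, adjusted p = 0.89), and neither did Ccr7 (0.19, adjusted p = 0.79).

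The antigen receptor and its signalling chain were lower as well. In the antigen receptor complex list, 5 of 8 tested genes were lower and 1 was higher (Cd81, a tetraspanin of the antigen receptor coreceptor), with a median log2 fold change of −0.74. In the antigen receptor signalling list, 7 of 14 were lower and none was higher. Cd72, an inhibitory coreceptor, stood at 318, 361 and 434 CPM in IgD+ cells and at 165, 148 and 176 CPM in switched cells, a log2 fold change of −1.19 ± 0.11 (adjusted p = 0.000115). Cd22, another inhibitory coreceptor, stood at 201, 149 and 96.4 CPM against 97.0, 65.1 and 49.8, a log2 fold change of −1.11 ± 0.13 (adjusted p = 0.000618). With depth matched, Cd72 still passed (−0.86), but Cd22 did not (−0.55, adjusted p = 0.10), and none of the tested signalling genes did.

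Among B cell transcription factors, 11 of 16 were lower and none was higher, with a median log2 fold change of −0.71, and 4 passed with depth matched. Foxp1, which holds B cells in a resting state, stood at 314, 481 and 417 CPM in IgD+ cells and at 60.5, 125 and 107 CPM in switched cells. The groups did not overlap, and the log2 fold change was −2.10 ± 0.11 (adjusted p = 4.52e-06) with all cells and −1.88 with depth matched. Bach2, a repressor that delays plasma cell differentiation, stood at 96.8, 104 and 79.8 CPM against 20.0, 25.0 and 27.5, a log2 fold change of −2.01 ± 0.18 (adjusted p = 0.000115) and −1.69 with depth matched. Bcl11a, a factor needed early in B cell development, had a log2 fold change of −1.14, and −0.93 with depth matched. Ebf1, an early determinant of the B lineage, had a log2 fold change of −0.71 (adjusted p = 0.000658), but −0.24 (adjusted p = 0.36) with depth matched.

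Aire was higher in switched cells. It (ENSMUSG00000000731, chr10:77865321-77879444, minus strand, GRCm39) stood at 7.37, 3.27 and 1.51 CPM in IgD+ cells and at 116, 30.7 and 35.9 CPM in switched cells. Every switched value exceeded every IgD+ value, and the log2 fold change was 3.78 ± 0.33 (adjusted p = 0.000111). It passed with depth matched (3.52) and in each of the 13 alternative settings in which it was tested.

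Only some switched cells contributed Aire molecules. An Aire UMI was found in 64 of 169, 47 of 309 and 49 of 316 switched cells (37.9%, 15.2% and 15.5%), against 7 of 195, 1 of 88 and 1 of 61 IgD+ cells. After reduction to 5000 UMIs the switched shares were 23.1%, 10.4% and 8.86%, and 2.48%, 1.09% and 1.09% of thymocytes had an Aire UMI. Over all B cells, 183, 121 and 139 had an Aire UMI, 21.8%, 12.4% and 13.8%. The Aire share of MAFIA replicate 2 was the highest of the 3 libraries. Single cells reached 26, 17 and 19 Aire UMIs. Cells with an Aire UMI were deeper than B cells as a whole, with medians of 16231, 14995 and 16405 UMIs.

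In the class switching and germinal centre list, 2 of 7 tested genes were higher and none was lower. Fas, the death receptor that activated B cells display, stood at 37.8, 41.4 and 42.2 CPM in IgD+ cells and at 121, 123 and 117 CPM in switched cells. The 3 libraries were alike within each class, and the log2 fold change was 1.57 ± 0.12 (adjusted p = 4.53e-05). Bcl6, the central factor of germinal centre B cells, did not pass (−0.85, adjusted p = 0.13). Of 22 proliferation genes, 2 were higher (Mcm3 at 0.72 and Mcm6 at 0.68, which encode subunits of the replicative helicase), and none passed with depth matched. Both missed the threshold without Cd11cYFP replicate 1 (0.77 and 0.64) or replicate 2 (0.62 and 0.59). The share of cells with at least 10 UMIs of that list after reduction to 5000 UMIs was 16.0%, 19.7% and 15.5% in switched cells and 13.3%, 5.68% and 13.1% in IgD+ cells.

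Genes of costimulation and licensing were higher in switched cells, while the MHC class II genes were not among the calls. Of the 12 genes of that list, which also holds Aire, 5 were higher (Aire, Cd70, Cd80, Tnfsf4 and Tnfsf9) and none was lower, with a median log2 fold change of 0.44. With depth matched, 2 were higher (Aire and Tnfsf9). Cd80, a ligand of CD28 on T cells, stood at 7.83, 12.0 and 12.0 CPM in IgD+ cells and at 39.7, 44.6 and 33.3 CPM in switched cells, a log2 fold change of 1.96 ± 0.29 (adjusted p = 0.00196), and 1.66 (adjusted p = 0.051) with depth matched. Cd70, the ligand of CD27, stood at 1.84, 4.36 and 7.53 CPM against 33.9, 50.4 and 32.1, a log2 fold change of 3.58 ± 0.72 (adjusted p = 0.0119). Cd70 did not pass with depth matched (3.11, adjusted p = 0.053), without Cd11cYFP replicate 1 (3.51) or without Cd11cYFP replicate 2 (4.05). Tnfsf9, the ligand of 4-1BB, stood at 4.61, 13.1 and 21.1 CPM against 19.6, 103 and 75.3, and Tnfsf4, the ligand of OX40, at 2.30, 1.09 and 3.01 CPM against 16.2, 11.6 and 7.77. Tnfsf9 had a log2 fold change of 2.38 ± 0.34 (adjusted p = 0.00174). Tnfsf4 had one of 2.57 ± 0.43 (adjusted p = 0.00411) and missed the threshold when MAFIA replicate 2 (2.34) or Cd11cYFP replicate 1 (2.38) was left out. All 13 MHC class II genes missed the threshold, with a median log2 fold change of −0.10, and so did Cd86 (0.12), Cd40 (0.31) and Cd83 (−0.10).

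Cxcr3, a chemokine receptor of activated lymphocytes, stood at 3.69, 1.09 and 1.51 CPM in IgD+ cells and at 32.0, 39.9 and 31.1 CPM in switched cells. The groups did not overlap, and the log2 fold change was 3.57 ± 0.49 (adjusted p = 0.00128) with all cells and 4.84 with depth matched. Bhlhe41, a transcription factor of B-1 cells, stood at 25.8, 62.2 and 75.3 CPM against 107, 135 and 132, a log2 fold change of 1.32 ± 0.20 (adjusted p = 0.0021). Bhlhe41 and Anxa2, which encodes a membrane-binding annexin, were the 2 of 10 tested B-1 genes that passed, both higher. Msc, a helix-loop-helix repressor found in activated B cells, stood at 0.461, 0 and 0 CPM against 18.5, 20.1 and 21.1, from 1 UMI in IgD+ and 253 in switched cells, a ratio of CPM of 75.7 (95% counting interval 13.5 to 3003). Ptprz1, a receptor phosphatase, stood at 0, 1.09 and 0 CPM against 27.3, 9.15 and 9.76, from 1 UMI against 165, a ratio of 49.4 (8.74 to 1962). In the CD11c+ T-bet+ list, Itgax itself did not pass (0.03).

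Plasma cell genes were uneven among switched cells. Sdc1, the plasma cell surface proteoglycan CD138, had 169 UMIs in switched cells (0.385, 17.3 and 16.5 CPM) and 0 in IgD+ cells, at least 16.9-fold higher against a floor of 3 UMIs over the group. Ly6a2 had 139 UMIs against 0, at least 13.9-fold higher, and the pigmentation gene a (agouti) 50 against 0, at least 4.99-fold higher. Sdc1 missed the threshold without Cd11cYFP replicate 1, Ly6a2 without either Cd11cYFP library, and a without MAFIA replicate 2 or Cd11cYFP replicate 2. Jchain (ENSMUSG00000067149, chr5:88667668-88675750, minus strand, GRCm39), which joins IgM and IgA into polymers, stood at 20.3, 16.4 and 15.1 CPM in IgD+ cells and at 29.3, 1767 and 2907 CPM in switched cells. The log2 fold change was 5.11 ± 0.89 (adjusted p = 0.00556), and it was 1.31 (adjusted p = 0.027) without the Jchain-rich cells described below. Slpi, a secreted protease inhibitor, had 3 UMIs in IgD+ and 3295 in switched cells and a log2 fold change of 7.40 ± 1.31 (adjusted p = 0.00585), 4.01 without the Jchain-rich cells, and did not pass without Cd11cYFP replicate 1 (7.91). Jchain did not pass without Cd11cYFP replicate 1 (4.19) or replicate 2 (3.86). Without the Jchain-rich cells, 720 of 8891 genes passed (8.10%), 327 higher (3.68%) and 393 lower (4.42%), of which 608 were called with all cells.

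Of the 5 markers of Ccr7+ dendritic cells, 2 were higher in switched cells and none was lower. Their sum was higher in switched cells of MAFIA replicate 2 and Cd11cYFP replicate 1 and lower in those of Cd11cYFP replicate 2. Summed over the 5 markers they reached 396, 250 and 1471 CPM in IgD+ cells and 1402, 964 and 1323 CPM in switched cells, and all myeloid markers 2641, 2447 and 3878 against 4356, 4692 and 5613. Ccl22, a chemokine of mature dendritic cells, had a log2 fold change of 1.73 ± 0.32 (adjusted p = 0.00815), and Fscn1, the actin-bundling protein of mature dendritic cells, one of 1.29 ± 0.31 (adjusted p = 0.0267). Neither passed with depth matched (1.46 and 0.94) or without Cd11cYFP replicate 1 (1.30 and 0.98). Cells with at least 5 Fscn1 and 3 Ccr7 UMIs, a group formed after seeing the data, numbered 28, 54 and 95 (3.33%, 5.54% and 9.41% of B cells). They were deep (medians 24872, 24267 and 24738 UMIs), and their B cell genes were lower than in all other B cells. Pax5 stood at 174, 160 and 134 CPM against 248, 197 and 179, and Cd79a at 451, 493 and 403 against 1005, 908 and 811. Fcmr stood at 236, 127 and 105 CPM against 380, 369 and 367. Whether these were joined cells was not tested. An Aire UMI was found in 11, 20 and 37 cells of this group. Aire stood at 30.3, 43.2 and 54.1 CPM in this group against 51.6, 19.1 and 21.1 in all other B cells. It was thus higher there in both Cd11cYFP libraries and lower in MAFIA replicate 2. Without the cells of this group the log2 fold change was 3.80 for Aire, as large as with them. In that setting 2 of 4 tested markers of Ccr7+ dendritic cells were higher in switched cells and none was lower. Their median log2 fold change was 0.72, against 0.66 over the 5 tested with all cells. The dendritic cell list moved the other way. Of its 7 tested markers, 1 was higher and 0 lower with all cells (median 0.40). Without the group 0 were higher and 1 was lower (median −0.20). The part of captured neighbouring RNA or of joined cells in Ccl22 and Fscn1 was not tested.

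**Figure D2:**
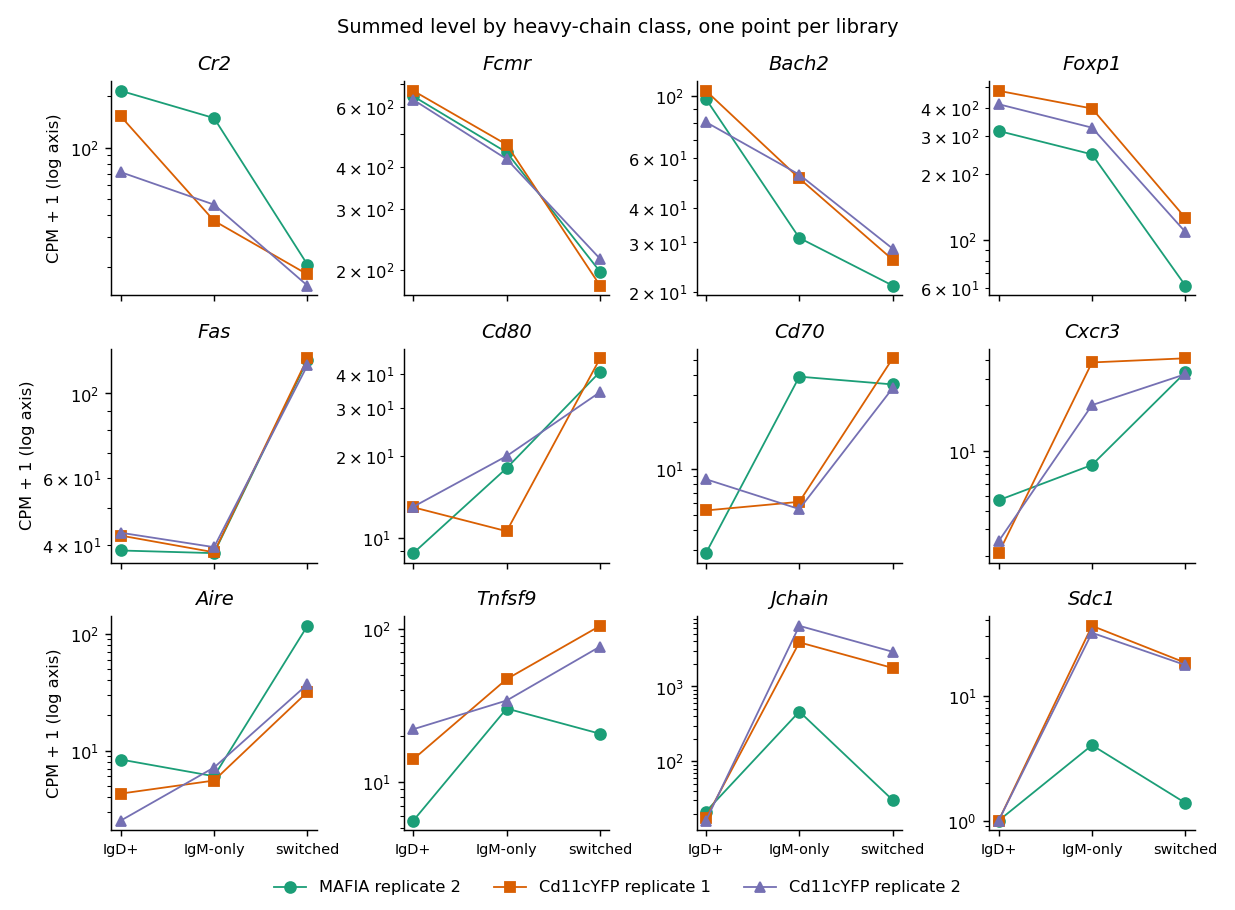
Each panel gives CPM + 1 (log axis) of 1 gene in the summed IgD+, IgM-only and switched B cells, with a line for each of the 3 libraries. Cr2, Fcmr, Bach2 and Foxp1 fell from IgD+ to switched cells in every library, Fas, Cd80, Cd70, Cxcr3, Tnfsf9 and Aire were higher in switched than in IgD+ cells, and Jchain and Sdc1 were high in IgM-only and switched cells of the Cd11cYFP libraries.

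IgM-only cells were compared with the same IgD+ sums, so both comparisons share their controls. Here 109 of 9608 genes passed (1.13%), 82 higher (0.853%) and 27 lower (0.281%). Of 15 plasma cell genes, 10 were higher and none was lower, with a median log2 fold change of 2.05. Without the Jchain-rich cells, 12 of 8891 genes passed (0.135%), 6 higher (0.0675%) and 6 lower (0.0675%), 11 of them called with all cells, and none of 10 tested plasma cell genes did. The count of calls also rested on single libraries: it was 259 without MAFIA replicate 2, 1 without Cd11cYFP replicate 1 and 7 without Cd11cYFP replicate 2. Of the 31 genes named by rule, 24, 0 and 5 passed in these settings.

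The rise of plasma cell genes in IgM-only cells was largest in the Cd11cYFP libraries. The list summed to 1794, 8342 and 10076 CPM in IgM-only cells against 1095, 876 and 946 in IgD+ cells. Jchain stood at 461, 3892 and 6472 CPM in IgM-only cells, a log2 fold change of 6.87 ± 0.89 (adjusted p = 0.00635), and 1.93 (adjusted p = 0.052) without the Jchain-rich cells. Sdc1 had 120 UMIs (3.01, 35.1 and 30.8 CPM) and Tnfrsf17, the receptor BCMA through which plasma cells survive, 97 UMIs (0, 15.3 and 39.1 CPM), both against 0 in IgD+ cells, at least 33.0-fold and at least 26.7-fold higher. Eaf2, an elongation factor partner abundant in plasma cells, stood at 10.0, 129 and 87.8 CPM against 1.84, 1.09 and 1.51, and Fkbp11, a chaperone of the secretory pathway, at 3.01, 138 and 129 CPM against 1.84, 3.27 and 1.51. In MAFIA replicate 2 each of these 5 genes stood below its value in both Cd11cYFP libraries. Most Jchain UMIs of its IgM-only cells, 427, lay in 1 cell.

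A small set of genes separated IgM-only from IgD+ cells whether or not the Jchain-rich cells were included. Zfp318 stood at 31.1, 26.6 and 12.9 CPM in IgM-only cells, with a log2 fold change of −1.67 ± 0.19 (adjusted p = 0.00474), and −1.45 without the Jchain-rich cells. These 2 classes were split by Ighd itself, so the change of Zfp318, which IgD expression requires, is close to the class rule. Satb1 stood at 71.4, 72.0 and 84.3 CPM in IgD+ cells and at 14.1, 23.2 and 30.2 CPM in IgM-only cells, a log2 fold change of −1.63 ± 0.21 (adjusted p = 0.00635), and −1.49 without the Jchain-rich cells. Pxdc1 at −1.96 ± 0.25 (adjusted p = 0.00635) and Cd72 at −0.86 ± 0.11 (adjusted p = 0.00635) also passed in both settings. Ahnak, a large scaffold protein, was higher at 0.80 ± 0.14 (adjusted p = 0.0234), and 0.94 without the Jchain-rich cells. None of these passed in the fit without a library block, which called 0 genes in edgeR at an adjusted p of 0.05 (864 at an unadjusted p under 0.05). Of other genes that differed in switched cells, Bach2 (−1.03, adjusted p = 0.0278) and Bcl11a (−0.59, adjusted p = 0.0278) also passed in IgM-only cells with all cells included, whereas Aire (0.64, adjusted p = 0.67) and Cr2 (−0.98, adjusted p = 0.13) missed the threshold.

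Jchain-rich cells, with at least 50 Jchain UMIs, held most UMIs of several plasma cell genes in the Cd11cYFP libraries. The limit was set after the ranked values were seen, so the group has no test. They numbered 1 of 841, 21 of 975 and 32 of 1010 B cells (0.119%, 2.15% and 3.17%). In MAFIA replicate 2 the cell of highest rank held 427 Jchain UMIs and the next 17, whereas the highest cells of the Cd11cYFP libraries held 2485 and 2202. Their median depth was 18169, 39554 and 27805.5 UMIs. In the Cd11cYFP libraries they supplied 95.6% and 97.5% of all Jchain UMIs of B cells, 58.7% and 72.0% of Igkc, 41.9% and 56.5% of Ighm, 98.6% and 91.8% of Sdc1 and 94.0% and 96.7% of Slpi. The share of Jchain follows from the selection. They supplied less of Mzb1, a chaperone of antibody assembly (28.4% and 29.4%), and of Irf4, a factor of activated B cells and plasma cells (12.0% and 8.28%). In MAFIA replicate 2 the 1 such cell supplied 62.7% of Jchain, 3.36% of Igkc, 2.75% of Xbp1 and 0% of Sdc1.

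Their other genes resembled those of antibody-secreting cells, from a rule that had demanded B cell genes. In the Cd11cYFP libraries Igkc, the kappa light chain, reached 141113 and 248992 CPM in these cells against 7185 and 6953 in all other B cells. Xbp1, the factor of the secretory programme, stood at 1185 and 1184 CPM against 54.1 and 61.4, and Prdm1, the repressor of B cell identity, at 55.1 and 48.3 CPM against 3.22 and 3.47. B cell identity genes were low: Pax5 stood at 3.18 and 6.03 CPM against 207 and 183, Bach2 at 4.23 and 2.01 CPM against 49.8 and 43.4, and Ms4a1, which encodes CD20, at 95.3 and 119 CPM against 853 and 774. Mki67, a marker of dividing cells, stood at 421 and 136 CPM against 91.7 and 123, and Aire had no UMI in them. Their leading heavy chain was Ighm in 10 and 16 cells, Ighg2b in 6 and 7, Igha in 3 and 7 and Ighg2c in 2 and 2. None met the IgD+ rule, 9 and 15 met the IgM-only rule, and 11 and 15 the switched rule.

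**Figure D3:**
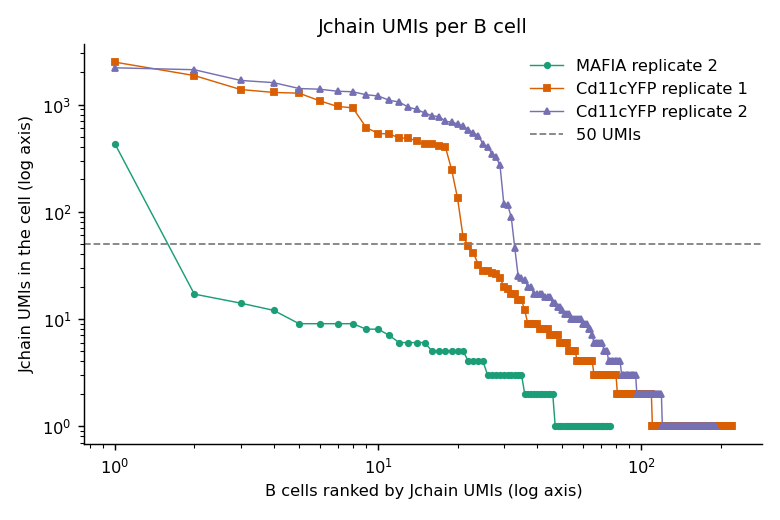
B cells of each library are ranked by their Jchain UMIs (both axes log), and the dashed line marks 50 UMIs. Above it lie 1 cell of MAFIA replicate 2, 21 of Cd11cYFP replicate 1 and 32 of Cd11cYFP replicate 2.

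In the Cd11cYFP libraries, B cells were further compared by the reporter itself. YFP transcripts stood at 592 and 470 CPM in B cells and at 1073 and 411 CPM in the other kept cells. At 5000 UMIs per cell, 57.6% and 57.3% of B cells had a YFP UMI, against 16.0% and 18.0% of thymocytes and 26.4% and 31.2% of plasmacytoid dendritic cells (median depth 11577.5 and 12056 UMIs). B cells of MAFIA replicate 2 had 1 YFP UMI in all. Cells with at least 2 YFP UMIs numbered 567 (58.2%, 55.0 to 61.3) and 588 (58.2%, 55.1 to 61.3), and cells with none 276 and 279. All came from the YFP+ sort. A cell without a YFP UMI is one in which none was captured, and whether it carried the reporter protein was not tested. Cells with YFP were deeper, at medians of 12777 and 12852.5 UMIs against 8671 and 8762.

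With all cells, 654 of 10725 genes passed (6.10%), 407 higher (3.79%) and 247 lower (2.30%) in cells with YFP. In 1 random draw of 240 and 259 cells per class with matched depth (medians 9126 and 9142 UMIs without YFP, 9146.5 and 9223 with it), 72 of 10425 passed (0.691%), 23 higher (0.221%) and 49 lower (0.470%), of which 37 were called with all cells. The draw lowered the number of cells as well as their depth, so the part of each in the smaller count was not tested. Within switched cells alone, an alternative chosen after seeing the data, 41 of 8179 passed (0.501%), 24 higher (0.293%) and 17 lower (0.208%).

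Proliferation genes were among those called with all cells and not in the matched draw. With all cells, 20 of 22 were higher in cells with YFP, with a median log2 fold change of 0.79, and at matched depth none passed and the median was −0.05. Mcm5, a helicase subunit, stood at 19.5 and 19.8 CPM in cells without YFP and at 49.2 and 49.5 CPM in cells with it, a log2 fold change of 1.32 ± 0.13 (adjusted p = 0.000229), against 0.34 (adjusted p = 0.64) at matched depth. Mki67 moved from 0.87 (adjusted p = 0.000665) to −0.21. A match on total UMIs also removes any difference that goes with the RNA content of a cell. Itgax, whose promoter drives the reporter, had a log2 fold change of 0.94 ± 0.22 (adjusted p = 0.024) with all cells and 0.10 (adjusted p = 0.97) at matched depth. The other lists that passed only with all cells included heat shock (4 of 9 higher), interferon-stimulated genes (3 of 19), costimulation (2 of 12) and class switching (2 of 7), each with 0 at matched depth. Aire (−0.21, adjusted p = 0.56) and Tbx21, which encodes T-bet (0.70, adjusted p = 0.32), missed the threshold with all cells.

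Spon1 and Cd55 kept their difference at matched depth and among switched cells. Spon1 (ENSMUSG00000038156, chr7:113364999-113642610, plus strand, GRCm39), which encodes the secreted matrix protein spondin 1, stood at 4.79 and 3.65 CPM in cells without YFP and at 18.5 and 25.9 CPM in cells with it. Both libraries moved the same way, and the log2 fold change was 2.39 ± 0.26 (adjusted p = 0.000428), 2.74 (adjusted p = 0.00033) at matched depth and 2.51 (adjusted p = 0.044) among switched cells. Cd55 stood at 101 and 64.8 CPM without YFP and at 36.6 and 32.1 CPM with it, a log2 fold change of −1.26 ± 0.13 (adjusted p = 0.000281), −0.83 at matched depth and −1.63 among switched cells. Pxdc1 (−1.58 ± 0.24, adjusted p = 0.00327) also passed at matched depth, at −1.88. The largest increase with all cells among the genes named by rule was Xcl1, a chemokine that attracts XCR1+ dendritic cells, at 0.342 and 0.304 CPM without YFP and 10.7 and 19.4 CPM with it (2 against 286 UMIs, a ratio of 47.0, 12.9 to 390), a log2 fold change of 5.45 ± 0.56 (adjusted p = 0.000356). It had too few UMIs to be tested at matched depth.

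Naive follicular genes were lower in cells with YFP, 7 of 13 with all cells and 2 at matched depth, and the class makeup moved with them. IgD+ cells were 27.8% and 14.8% of the assigned cells without YFP and 8.87% and 10.0% of those with it, and 27.2% and 13.9% against 10.0% and 13.3% at matched depth. Switched cells were 46.2% and 52.3% against 68.8% and 66.3%, and 48.3% and 54.2% against 60.8% and 58.6% at matched depth. The gap in IgD+ cells was thus wide in replicate 1 and narrow in replicate 2. Cr2 stood at 75.6 and 39.5 CPM without YFP and 22.9 and 28.2 CPM with it, with a log2 fold change of −1.14 for all cells and −0.57 (adjusted p = 0.49) at matched depth.

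Plasma cell genes were lower in cells with YFP at matched depth, 8 of 15 with a median log2 fold change of −1.02, and 3 of 15 with all cells. Without the Jchain-rich cells, 2 of 12 tested were higher and none was lower, with a median of 0.27. Jchain stood at 2302 and 3728 CPM without YFP and at 700.3 and 1030 CPM with it, a log2 fold change of −1.79 ± 0.07 (adjusted p = 4.16e-08), and −0.20 (adjusted p = 0.29) without the Jchain-rich cells. Slpi had a log2 fold change of −4.79 ± 0.61 (adjusted p = 0.00115), and 0.04 without them. Igkc (−1.57 ± 0.12, adjusted p = 4.22e-05) and Ighm (−0.69, adjusted p = 0.000428) likewise came to −0.08 and 0.07. The Jchain-rich cells numbered 6 of 276 and 14 of 279 cells without YFP, and 13 of 567 and 12 of 588 cells with it. Their share was thus nearly equal in replicate 1 and higher without YFP in replicate 2.

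**Figure D4:**
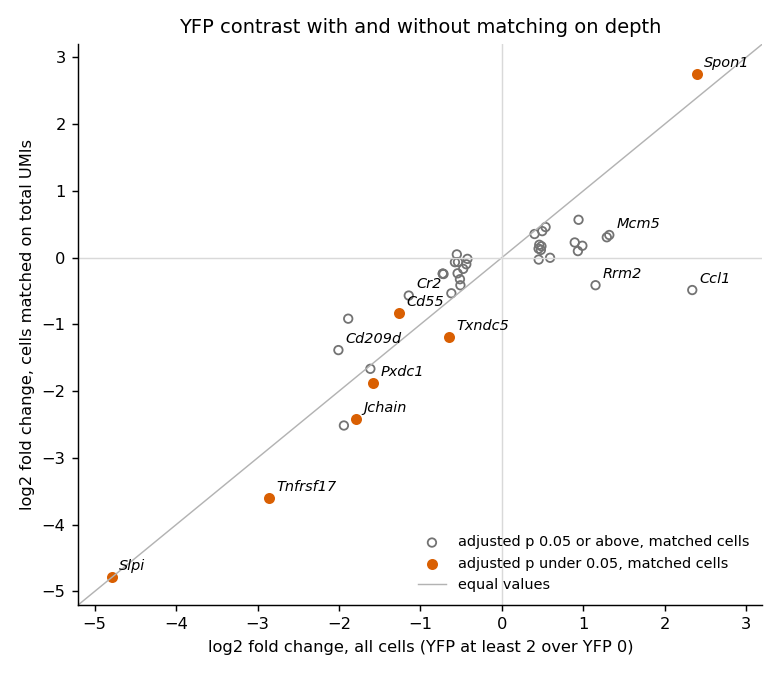
Each point is 1 gene, with the log2 fold change of cells with at least 2 YFP UMIs over cells with none on both axes, for all B cells (horizontal) and for cells matched on total UMIs (vertical). Filled points passed at matched depth, such as Spon1 at 2.74 and Cd55 at −0.83, while Mcm5 at 0.34 and Ccl1 at −0.49 did not.

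MAFIA and Cd11cYFP B cells were set side by side without a test, since MAFIA replicate 2 is the only library of its group here. Reporter, sex, age and library cannot be told apart in this comparison. Of 12285 genes with at least 50 UMIs, 183 (1.49%) stood over 2-fold above both Cd11cYFP libraries and 409 (3.33%) over 2-fold below both, 592 in all (4.82%). The median log2 ratio of all genes was 0.09. Of these, 80 of the higher (43.7%) and 207 of the lower genes (50.6%) were outside in the same direction in the other kept cells of the same libraries.

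Immediate early genes, which respond within minutes to stimulation, were lower in MAFIA B cells. Of 20 such genes, 16 were over 2-fold lower, and all 16 were so in the other kept cells too. Fos stood at 7.80, 349 and 410 CPM in B cells and at 39.4, 1160 and 1486 CPM in the other cells. Fosb stood at 9.97, 194 and 237 CPM, Klf4 at 4.75, 106 and 125, Atf3 at 1.29, 34.4 and 61.2 and Dusp1, a phosphatase that switches off MAP kinases, at 7.64, 124 and 146. Interferon-stimulated genes showed the reverse in 3 of 19, also in both cell sets, with Ifit1 at 117, 40.5 and 45.7 CPM in B cells.

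Some genes of naive B cells were higher in MAFIA B cells, 2 of the 13 in the naive follicular list (Cr2 and Fcer2a), and 1 was lower (Ccr7). Cr2 stood at 92.4, 36.7 and 31.9 CPM, Fcer2a at 359, 174 and 166 and Ighd at 112, 49.5 and 36.0, beside the larger share of IgD+ cells in that library. All 3 were also over 2-fold higher in the other kept cells, at far lower levels (Cr2 at 2.79, 0.970 and 1.35 CPM). Csf1r, whose promoter drives EGFP in MAFIA mice, stood at 23.6, 7.07 and 5.39 CPM in B cells and was not over 2-fold outside in the other cells (193, 146 and 105 CPM). Ighe stood at 32.4, 10.7 and 8.29 CPM. Ccr7, which leads lymphocytes to T cell zones, stood at 79.2, 194 and 249 CPM and Tnfsf9 at 17.7, 67.8 and 66.7, and both were over 2-fold lower in the other cells too. The neutrophil genes S100a8 (5.63, 0.0714 and 0.202 CPM) and S100a9 were highest by ratio, and S100a8 was at 53.3, 1.20 and 3.01 CPM in the other cells. Dntt, the polymerase of lymphoid precursors, stood at 8.77, 0.571 and 1.48 CPM in B cells and at 59.8, 16.0 and 13.5 in the other cells.

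Plasma cell genes were lower in MAFIA B cells, 8 of 15 over 2-fold, of which 2 (Jchain and Fkbp11) were also lower in the other kept cells. Jchain stood at 54.8, 1231 and 1953 CPM, Fkbp11 at 1.77, 26.3 and 31.5 and Tnfrsf17 at 0, 3.43 and 7.61, beside 1, 21 and 32 Jchain-rich cells. Igkc stood at 7869, 16219 and 23175 CPM, Igha at 297, 1077 and 1397, Ighg2b at 587, 2069 and 2322 and Ighg2c at 33.4, 320 and 531. None of the 13 MHC class II, 14 antigen receptor signalling, 16 B cell transcription factor and 22 proliferation genes lay over 2-fold outside both Cd11cYFP libraries. Aire, at 50.3, 21.6 and 26.7 CPM, was less than 2-fold above the higher of them.

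**Figure D5:**
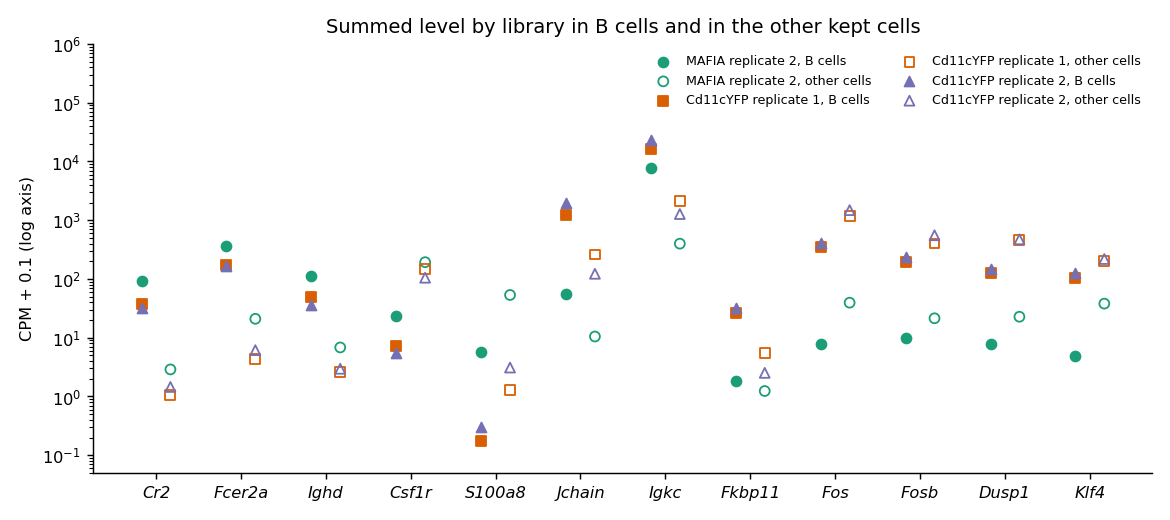
CPM + 0.1 (log axis) of 12 genes in B cells (filled) and in the other kept cells (open) of the 3 libraries. Fos, Fosb, Dusp1 and Klf4 were low in both cell sets of MAFIA replicate 2, Cr2, Fcer2a and Ighd were high in its B cells, and Jchain stood at 54.8 CPM there against 1231 and 1953.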

How the data were processed

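For 4 libraries the authors deposited counts of UMIs by gene and barcode without scaling (10x Single Cell 3' v3), for barcodes already called as cells. The submitters' processing notes name bcl2fastq 2.20, STAR 2.7.9a, Cell Ranger and the builds GRCm39 and mm39, whereas the study's methods name another Cell Ranger version and mm10. Coordinates given are those of GRCm39 (GENCODE), in which 54749 of 55418 identifiers were found. All columns were mapped to samples (0 left out).

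B cells were chosen by the thresholds in the text. The members, gene lists and tests were chosen with earlier results of these data known. B cells totalled 12432041, 14002918 and 14842618 UMIs. No doublet caller was run, and the 10% of cells highest in UMIs or in myeloid markers were left out as alternatives. UMIs were summed per library and class (at least 10 cells a sum) and compared in edgeR 4.0.16 (TMM, filterByExpr, quasi-likelihood test) on R 4.3.3 with the library as a block, since the classes of 1 library share an animal. The fits held 6 sums with 2 residual degrees of freedom (YFP) and 9 sums with 4 (heavy chain class). P-values were adjusted by Benjamini and Hochberg's method across the genes of a comparison (threshold 0.05). DESeq2 1.42.0, RLE scaling, no filter, no block, reduction to 5000 UMIs per cell, other gates and each library left out were alternatives. Genes named were, per comparison and direction, the 8 largest changes among those passing with 1 sign in every library and at least 50 UMIs, without variable segments, unnamed models and sex-linked transcripts, then the 3 largest in each of 33 lists with 2 or more passing. Between MAFIA and Cd11cYFP they were the 8 largest each way. Other list members, such as Ebf1, Bcl6 and, between YFP classes, Aire, were picked after their values were seen. Some genes counted in the lists are not reported by name here. Python 3.11.15, numpy 2.4.6, scipy 1.17.1, pandas 2.3.3 and matplotlib 3.10.9 were used.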

Additional observations from a re-analysis of the deposited data

Results flagged for a closer look

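In MAFIA replicate 1, which entered no comparison, 19 cells passed the B cell rule.

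Some lists moved one way in MAFIA replicate 2 and the opposite way in both Cd11cYFP libraries. These are log2 ratios of the summed list between classes, 1 library stands on one side, and the differences between libraries were not tested. From IgD+ to switched cells, MHC class II presentation moved by 0.16 in MAFIA replicate 2 against −0.22 and −0.08, chemokine and migration receptors by −0.15 against 0.22 and 0.11, immediate early genes by −0.34 against 0.09 and 0.08, and thymocyte markers by −0.41 against 0.16 and 0.28. From IgD+ to IgM-only cells, NF-kB and CD40 response genes moved by 0.44 against −0.37 and −0.34, costimulation and licensing by 0.32 against −0.24 and −0.07, class switching and germinal centre genes by 0.077 against −0.29 and −0.03, heat shock genes by 0.071 against −0.09 and −0.06, pDC markers by −0.15 against 0.05 and 0.08, and MHC class II presentation by 0.0060 against −0.52 and −0.16.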

How the results depend on the processing

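Without the limits on Cd3e, Siglech, Xcr1 and C1q the mean B cell share was 14.7% in place of 12.2%. The share with at least 2 YFP UMIs, 58.2%, was 40.5% after reduction to 5000 UMIs and 57.9% with at least 5 Cd79a UMIs. Calls between YFP classes (654) became 187 in DESeq2, 1082 with no filter on low counts, 157 after reduction, 249 without the highest 10% of UMIs, 41 in switched cells only and 72 at matched depth. Leaving out a library left no residual degrees of freedom there and gave no count. Calls between switched and IgD+ cells (657) became 362 in DESeq2, 1136 with no filter, 136 at matched depth and 197 to 437 with 1 library left out. Calls between IgM-only and IgD+ cells (109) became 464 with no filter, 244 after reduction, 23 without the highest 10% of UMIs, 53 without the highest 10% of myeloid marker share, 12 without Jchain-rich cells and 1 to 259 with 1 library left out. Without the replicate block, which pairs classes of 1 library, calls were 138 (YFP), 184 (switched) and 0 (IgM-only, 864 at unadjusted p under 0.05). The cause of these moves was not tested.

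Directions turned for 12 of the 49 genes named between YFP classes. In switched cells only, Ccl1 came to −0.26, Cd209d to 3.24 and Notch2 to 0.026 (log2). At matched depth, Ccl1 came to −0.49, Rrm2 to −0.41, Cd180 to 0.048, Isg15 to −0.0022 and Hspd1 to −0.029. After reduction, Cd70 came to −0.51, Tnfsf9 to −0.20, Ccnb1 to −0.080 and Rrm2 to −0.33. Without Jchain-rich cells, Slpi came to 0.042 and Txndc5 to 0.44. Over all alternatives, the 51 genes named between switched and IgD+ cells passed in 493 of their tests and missed in 153, and the 31 between IgM-only and IgD+ cells passed in 208 and missed in 153, none with the opposite sign. Fewer genes could be tested at matched depth, 8120 and 10425 against 9608 and 10725 with all cells. The matched draws held fewer cells and fewer summed UMIs, and the part of depth in this loss was not tested.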
